A study of Mus musculus with 7 samples.

Results

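The genes described are 10 genes of iron handling in mouse B cells: Tfrc, Slc11a2, Steap3, Fth1, Ftl1, Aco1, Ireb2, Slc40a1, Hmox1 and Slc25a37. They were taken by symbol from a table of 46959 genes, and all 10 were found and passed the filter on low counts. They were chosen with their values in this comparison known, so the values of the 10 are a description and carry no test. B cells purified from the spleen were cultured for 4 days with lipopolysaccharide (LPS, 1 µg/mL), a bacterial activator of B cells, and interleukin 4 (IL-4, 20 ng/mL), and their total RNA was sequenced after removal of ribosomal RNA. The 3 wild-type (WT) cultures were set against 4 cultures labelled cKO MED1. Med1 is a subunit of Mediator, the complex that carries signals from enhancers to RNA polymerase II. The labels name no driver of the deletion and no strain, age or sex of the mice. They also do not say that replicates were separate mice, so p-values measure only the spread between these samples, which may be partly technical. The series title places the study's question at the immunoglobulin heavy chain genes.

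Cells take up iron bound to transferrin through the transferrin receptor, reduce it in the endosome and pass it to the cytosol through the transporter DMT1. Iron that is not used at once is stored in ferritin, exported by ferroportin, or sent to mitochondria for heme and iron-sulphur clusters. The iron regulatory proteins IRP1 and IRP2 sense the cytosolic iron pool and bind iron-responsive elements, short RNA hairpins. Binding in the 3′ untranslated region (UTR) of the transferrin receptor mRNA protects it from decay, and binding in the 5′ UTR of ferritin or ferroportin mRNA blocks translation without needing a change in mRNA level. Dividing lymphocytes are known to carry much transferrin receptor, since DNA synthesis requires an iron enzyme.

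The iron-responsive elements are shown because they are the RNA hairpins that the iron regulatory proteins bind, and because their side of the coding sequence differs between the receptor and the ferritin mRNAs. The motif searched was CNNNNNCAGUGNNNNNN on the mRNA strand, with the last 5 bases paired with the 5 bases before CAGUGN, the loop. A-U, G-C and G-U pairs were allowed. It was found in 4 of the 10 genes, at 4 places in the 3′ UTR of Tfrc and once each in the 5′ UTR of Fth1, Ftl1 and Slc40a1. Of 21157 annotated genes with a UTR, 0.756% held it, and 0.501% held it on the opposite strand. In the lines that follow, taken from GENCODE transcripts on GRCm38, the loop is in capitals with 12 bases before it and 11 after it.
Tfrc element 1: aauuaucggaagCAGUGCcuuccauaauu
Tfrc element 2: cauuaucgggagCAGUGUcuuccauaaug
Tfrc element 3: cuauaucggagaCAGUGAucuccauaugu
Tfrc element 4: aauuaucgggaaCAGUGUuucccauaauu
Fth1 element: uuccugcuucaaCAGUGCuugaacggaac
Ftl1 element: gucuugcuucaaCAGUGUuugaacggaac
Slc40a1 element: caacuucagcuaCAGUGUuagcuaaguuu
The Tfrc elements lie on the plus strand at chr16:32631219-32631247, chr16:32631598-32631626, chr16:32631663-32631691 and chr16:32631710-32631738. Those of the other genes lie at chr19:9982732-9982760 on the plus strand (Fth1), chr7:45459779-45459807 on the minus strand (Ftl1) and chr1:45925465-45925493 on the minus strand (Slc40a1). No match in Slc11a2 or the other 5 genes says only that this motif is not in their annotated UTRs.

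**Figure D1:**
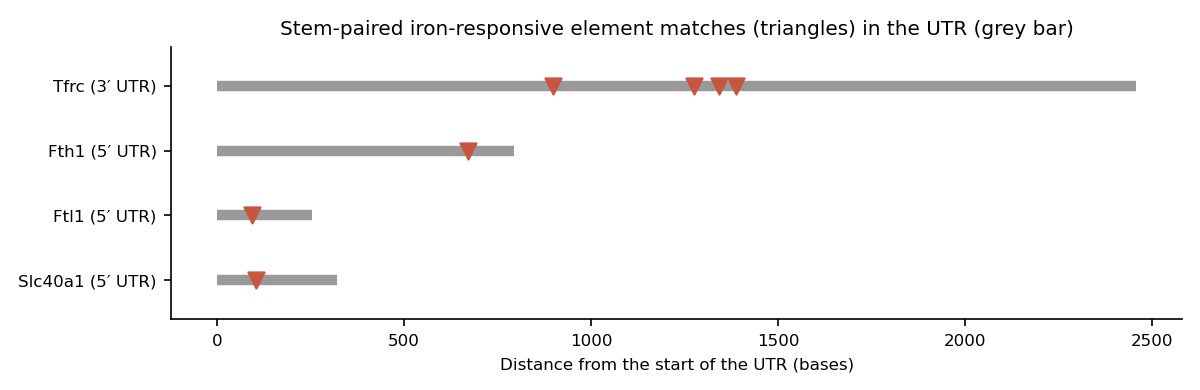
The horizontal axis gives the distance in bases from the start of the UTR, the grey bars the UTR of the annotated transcript with the longest such UTR, and the triangles the stem-paired matches. Tfrc has 4 matches in a 3′ UTR of 2458 bases, and Fth1, Ftl1 and Slc40a1 have 1 match each in the 5′ UTR.

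Libraries held 31937372 to 61149274 recovered reads, with the 3 deepest all in WT. Med1 itself stood at 4173 to 4755 normalised reads (reads scaled to a common library size) in WT and 2172 to 2585 in cKO MED1. Reads in 1427 odorant and pheromone receptor genes, which B cells are not known to use, ranged from 0.093 to 0.207 normalised reads per kb of exon in WT and from 0.198 to 0.902 in cKO MED1, highest in replicates 4 and 3. Reads of Ddx3y, a Y-linked gene, exceeded those of Xist, the RNA of X inactivation, in all 3 WT libraries and cKO MED1 replicate 3. Xist exceeded Ddx3y in the other 3 cKO MED1 libraries, so sex goes largely with genotype. The cKO MED1 libraries thus came from more than 1 mouse, though whether each was a separate mouse is not known. All 10 B cell markers were present in every library, with a sum of 346686 to 358782 normalised reads in WT and 286088 to 331700 in cKO MED1. Limma called 5 of the 10 lower, among them Cd79a at 54.4% and Ms4a1 at 63.5% of the WT mean, and 1 higher, Cr2, while Cd74, the most abundant, held 169474 and 170311 on average. Of 6 plasma cell markers, Jchain (-1.58) and Sdc1 (-1.22) were called lower and Prdm1 (0.71) and Irf4 (0.41) higher, with a sum of 81757 to 124143 in WT and 59845 to 82565 in cKO MED1. The part of such shifts in the values of the iron genes was not tested. In these bulk samples, fewer cells of a type and less RNA per cell cannot be told apart.

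The transferrin receptor gene Tfrc was the member that differed most among the well expressed ones. Its normalised reads were 14915, 10432 and 8973 in the WT libraries (replicates 1, 2 and 3) and 4465, 4948, 5987 and 3772 in the cKO MED1 libraries (replicates 1, 2, 3 and 4), the order used for each gene that follows. All 4 cKO MED1 libraries lay below all 3 WT libraries, and WT replicate 1 stood well above the other two. WT averaged 11440.1 ± 3096.4 (SD, n = 3) and cKO MED1 4793 ± 931 (SD, n = 4), or 41.9% of the WT mean. The log2 difference, cKO MED1 minus WT on log2(normalised reads + 1), was -1.24 (SE 0.18). Of all genes tested, 1.21% had a difference of -1 or below and 0.764% one as low as that of Tfrc or lower. Of the 6020 genes in the upper tercile by mean level, 21 (0.349%) were that low, Tfrc included. Without WT replicate 1 the difference was -1.08. When the fit took sex as a covariate it was -0.90 and Tfrc was no longer among the called genes. In that fit the genotype effect rests on cKO MED1 replicate 3, the only male library of its group and the one with the most Tfrc in it.

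For both other uptake genes the groups overlapped. Slc11a2 encodes DMT1, the transporter that moves iron out of the endosome. It held 643, 559 and 514 normalised reads in WT and 557, 526, 524 and 523 in cKO MED1, with cKO MED1 inside the WT range (log2 difference -0.10, SE 0.10). Steap3 encodes an endosomal ferrireductase, best known from red cell precursors. It was scarcely expressed, at 35.1, 39.2 and 20.0 normalised reads in WT and 21.7, 7.8, 25.02 and 34.8 in cKO MED1, which rest on 8 to 51 recovered reads per library. Its log2 difference was -0.59 (SE 0.46), and -0.15 without cKO MED1 replicate 2, the library with 8 reads. Slc11a2 shares 710 exonic bases with the opposite-strand gene Gm5475, which had 2 to 15 reads per library. The library kit keeps strand, but the strand setting of the counting is not stated, so reads of the pair may be mixed.

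**Figure D2:**
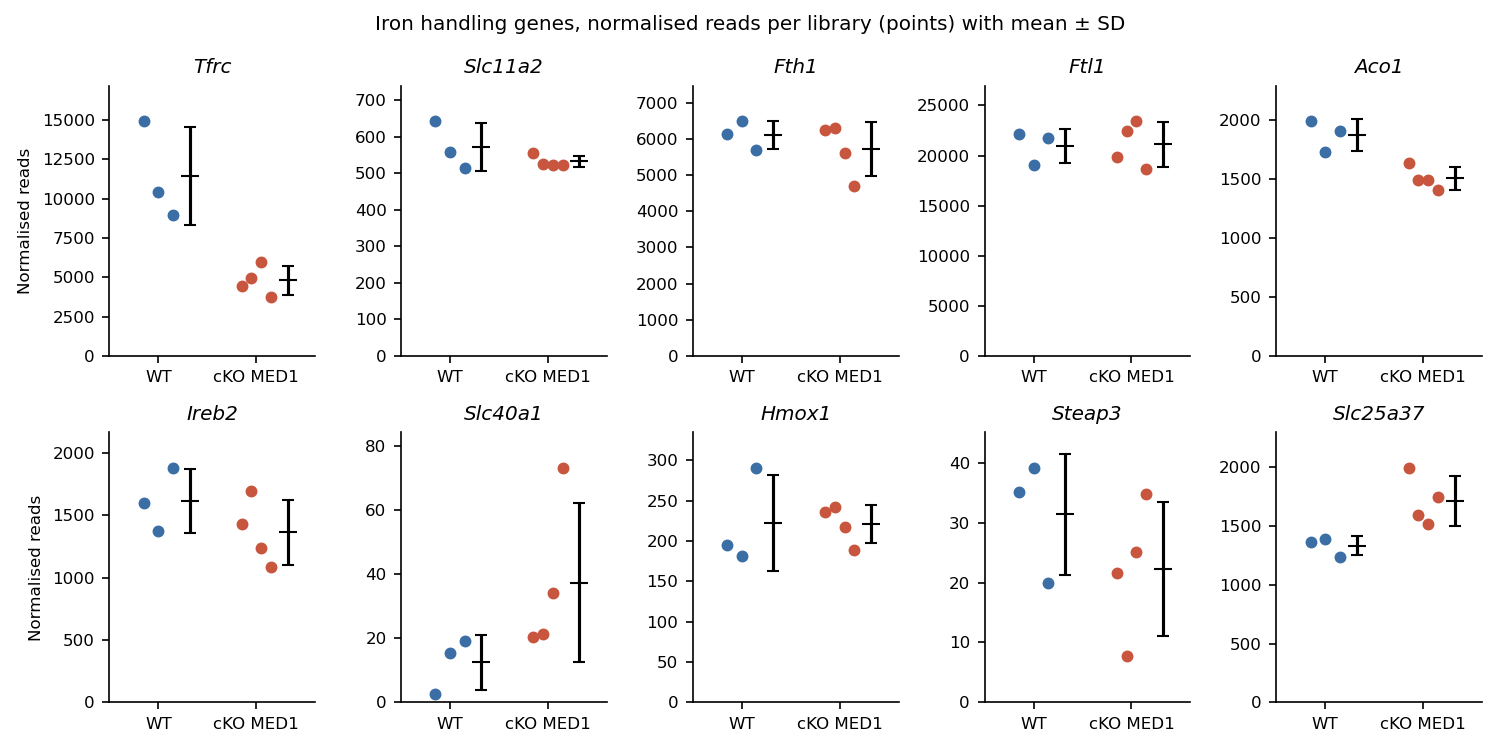
Each panel plots the normalised reads of 1 gene (vertical axis, starting at 0) in the 3 WT and 4 cKO MED1 libraries as points, with the mean and SD beside them. Tfrc forms separate ranges, 8973 to 14915 against 3772 to 5987, whereas Ftl1, Fth1, Slc11a2, Ireb2, Hmox1 and Steap3 overlap between groups.

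The groups overlapped for both ferritin genes. Fth1 encodes the heavy subunit, which oxidises iron on entry into the shell. It held 6129, 6487 and 5701 normalised reads in WT and 6237, 6296, 5610.4 and 4702 in cKO MED1, with a log2 difference of -0.10 (SE 0.11). Replicate 4 of cKO MED1 was the lowest of the 7 libraries. Ftl1 encodes the light subunit, which helps form the iron core. It held 22129.7, 19051 and 21752 normalised reads in WT and 19877, 22491, 23428 and 18653 in cKO MED1, with a log2 difference of 0.01 (SE 0.12). The highest and the lowest of the 7 values of Ftl1 were both in cKO MED1.

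The level of Ftl1 is uncertain, because other annotated genes are near copies of it. 9 of them matched its transcript at 90.8% to 100% identity over at least 300 bases, and 5 of these are in the table. Of those 5, Gm15590 had 415 to 1324 recovered reads per library and the rest, Ftl2-ps among them, had at most 4. Ftl1-ps1, 99.6% identical over 910 bases, is not analysed here. The labels do not say how reads matching several copies were counted. Fth1 had 1 such copy, Gm6977, with at most 2 reads, and the ferritin heavy chain pseudogene Fth-ps2 held 9.79 to 34.8 normalised reads.

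The genes of the iron regulatory proteins differed less than Tfrc. Aco1 encodes IRP1, which is a cytosolic aconitase when it carries an iron-sulphur cluster and binds RNA when it does not. It held 1989, 1725 and 1904 normalised reads in WT and 1637, 1489.4, 1489.5 and 1406 in cKO MED1, so the groups did not overlap (log2 difference -0.31, SE 0.09). Ireb2 encodes IRP2, which is degraded when iron is ample. It held 1597, 1374 and 1883 normalised reads in WT and 1434, 1695, 1239 and 1089 in cKO MED1, and the groups overlapped (log2 difference -0.25, SE 0.15). The ratio of Aco1 to Ireb2 per kb of exon was 2.47 ± 0.29 (SD, n = 3) in WT and 2.38 ± 0.37 (SD, n = 4) in cKO MED1.

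Slc40a1 encodes ferroportin, the exporter through which iron leaves a cell, and it was the least expressed member in WT. It held 2.75, 15.5 and 19.2 normalised reads in WT and 20.3, 21.4, 34.2 and 73.2 in cKO MED1, counted from 4 to 40 recovered reads per library. The groups did not overlap, although WT replicate 3 and cKO MED1 replicates 1 and 2 lay close together and WT replicate 1 stood far below. The log2 difference was 1.63 (SE 0.61), and 0.82 without WT replicate 1. Slc40a1 lies in the lower tercile by mean level, where limma called 22% of all genes higher and 0.98% lower. Its 3 highest libraries, cKO MED1 replicates 4, 3 and 2, were also the 3 with the most reads per kb in odorant and pheromone receptor genes. Subtracting that receptor level per kb of exon left 1.92 to 17.7 normalised reads in WT and 18.5 to 65.1 in cKO MED1, with a log2 difference of 1.68.

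Ferroportin is abundant in macrophages of the spleen, and markers of that cell type stand beside it as follows. None of the 13 tested macrophage and monocyte markers of 15 listed was called, and 0 of the 15 were at 0 in all libraries. Their summed level was 484 to 905 normalised reads in WT and 672 to 1043 in cKO MED1. Log2 differences were negative for Adgre1, Lyz2 and C1qa and positive for the rest of those tested. The untested markers, Fcgr1 (0.69 to 2.45 in WT, 3.90 to 20.1 in cKO MED1) and Cd14 (0 to 2.45, 2.71 to 7.32), did not overlap between groups. The part of these cells in the Slc40a1 values was not tested.

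**Figure D3:**
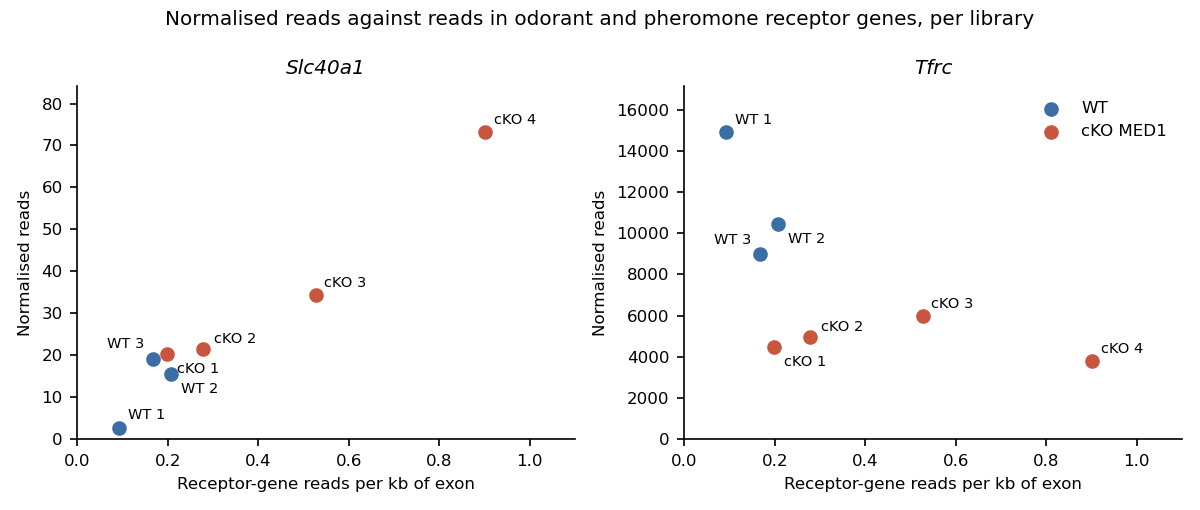
The horizontal axes give normalised reads per kb of exon in odorant and pheromone receptor genes and the vertical axes normalised reads of Slc40a1 (left) and Tfrc (right), 1 point per library. Slc40a1 is highest, at 73.2 and 34.2, in the 2 libraries with the most receptor reads. Tfrc is highest, at 14915, in the library with the fewest receptor reads (0.093) and lowest, at 3772, in the one with the most (0.902). Receptor level goes largely with genotype, and its part in the values of either gene was not tested.

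Hmox1 encodes heme oxygenase 1, which breaks down heme and releases its iron, and is known to be induced by heme and oxidative stress. It held 195, 181 and 291 normalised reads in WT and 236, 242, 217 and 189 in cKO MED1. The cKO MED1 values lay inside the WT range, and the log2 difference was 0.02 (SE 0.17). Slc25a37 encodes mitoferrin 1, the carrier that brings iron into mitochondria. It held 1365, 1386 and 1238 normalised reads in WT and 1993, 1591, 1517 and 1740.4 in cKO MED1, and all 4 cKO MED1 libraries lay above all 3 WT libraries (log2 difference 0.36, SE 0.10). Scaling by total reads lowered that difference to 0.11, the sex covariate to 0.19 and the authors' size factors to 0.22, and in none of these 3 fits was it among the called genes, nor when any 1 WT library was left out. A stretch of 381 to 382 bases of its transcript is identical to 3 other listed genes, Gm16867 with 16 to 247 recovered reads per library and Gm31748 and Gm37847 with at most 14. Gm31748 overlaps it by 381 exonic bases on the opposite strand. The related carrier gene Slc25a28, mitoferrin 2, held 662 ± 57.3 (SD, n = 3) and 597 ± 93.8 (SD, n = 4) normalised reads. The ratio of Slc25a37 to Slc25a28 per kb of exon was 1.25 ± 0.08 in WT and 1.79 ± 0.14 in cKO MED1, with no overlap between the groups.

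In the fit across all genes, limma called 3 of the 10 members at an adjusted p of 0.05, Tfrc and Aco1 lower and Slc25a37 higher, where it called 28% of the 18062 genes tested (14.6% lower and 13.4% higher). Groups did not overlap in 4 of the 10, these 3 and Slc40a1, where the share over all genes tested was 39.1% (19.8% lower and 19.3% higher). The median log2 difference of the 10 was -0.10, beside 0.04 for all genes tested. Since the members were chosen on this contrast, these counts are given beside the background without a reading. With sex as a covariate limma called 0 of the 10 and 1.26% of all genes, and without WT replicate 1 it called 1 of the 10, Tfrc, and 7.94%. edgeR's quasi-likelihood test called the same number of members, 3, and 29.6% of all genes.

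Per kb of exon, the order of levels in WT was Ftl1 at 15655 ± 1253 normalised reads per kb (SD, n = 3), Tfrc at 1849.65 ± 501, Fth1 at 1760.1 ± 114, Aco1 at 417 ± 29.98, Slc25a37 at 221 ± 13.3, Ireb2 at 171 ± 26.9, Hmox1 at 127 ± 34.1, Slc11a2 at 90.03 ± 10.3, Steap3 at 5.5 ± 1.77 and Slc40a1 at 1.39 ± 0.96. Libraries of neighbours in this order overlapped for Tfrc and Fth1 and for Ireb2 and Hmox1, and for no other pair. In cKO MED1, Tfrc at 775 ± 151 (SD, n = 4) lay below Fth1 at 1646 ± 214 without overlap. Aco1 (335 ± 21.4) and Slc25a37 (284 ± 34.9), Ireb2 and Hmox1, and Slc40a1 and Steap3 then overlapped. The ratio of Tfrc to Fth1 per kb was 1.36, 0.90 and 0.88 in WT and 0.40, 0.44, 0.60 and 0.45 in cKO MED1. Receptor mRNA per unit of ferritin heavy chain mRNA was thus lower in each cKO MED1 library than in any WT library. Exon length here covers all annotated exons of a gene, 3469 bases for Fth1, whose longest protein-coding transcript has 1494. The WT order of Tfrc and Fth1 and the size of their ratio depend on the length used. Which group has the lower ratio does not.

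**Figure D4:**
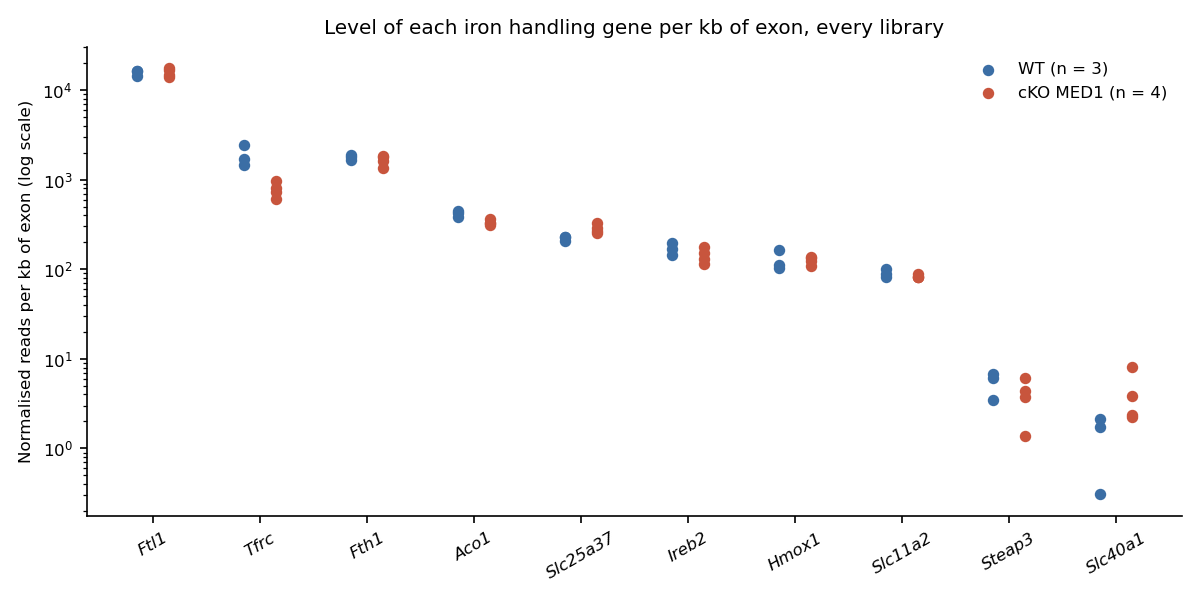
The vertical axis, on a log scale, gives normalised reads per kb of exon, with 1 point per library and genes in the order of their WT level. Over all annotated exons, Tfrc and Fth1 lie at 1849.65 and 1760.1 in WT and at 775 and 1646 in cKO MED1. Their order in WT depends on the exon length used. Steap3 and Slc40a1 lie far below the other 8 genes.

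The pathway around the members was followed in 114 other iron genes, grouped by role, of which 105 passed the filter on low counts. These lists were drawn up with earlier results of these data known, so their counts and p-values are a description and no independent check. Limma called 27 lower and 7 higher, or 25.7% and 6.67%, where 14.6% and 13.4% of all genes tested were called. Direction in this data set goes with level. Among the 50 iron genes in the upper tercile by level 36% were called lower, beside 27.6% of all genes there, and 6% higher, beside 5.4%. In the middle tercile 23.1% of 39 were lower, beside 15.4%, and 5.13% higher, beside 12.8%. In the lower tercile 0 of 16 were lower, beside 0.98%, and 12.5% higher, beside 22%. The median log2 fold change of the 105 was -0.16. With sex as a covariate limma called 1 of them lower and 0 higher, and without WT replicate 1 it called 13 lower and 1 higher.

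Of the 14 tested genes of iron uptake and the transferrin cycle, 1 fell (7.14%) and 2 rose (14.3%), beside 14.6% and 13.4% of all genes tested. Slc39a8, a metal ion importer that also carries iron, fell from a mean of 434 ± 60.1 (SD, n = 3) normalised reads to 314 ± 13.9 (SD, n = 4) (log2 fold change -0.46, limma adjusted p = 0.0185). Slc22a17, a receptor for the iron-binding protein lipocalin 2, rose from 63.3 ± 13.1 to 133 ± 17.2 (1.07, limma adjusted p = 0.00337), and Lcn2, lipocalin 2 itself, rose from 19.4 ± 6.77 to 37.8 ± 2.16 (0.98, limma adjusted p = 0.0317). The Lcn2 call ended in 9 of 18 other settings, that of Slc39a8 in 3 of 19 and that of Slc22a17 in 1 of 19. Lcn2 lies in the lower tercile by mean level, where limma called 22% of all genes higher. The 8 listed neutrophil markers summed to 7.57 to 23.7 normalised reads in WT and 27.1 to 119 in cKO MED1. Of the 2 tested, 1 was called higher, and 5 of the 8 stayed under 10 in every library. Their part in the Lcn2 values was not tested. Tfr2, the second transferrin receptor, stood at 38.0 and 52.5 normalised reads, and Slc11a1, a phagosomal relative of DMT1, at 16.8 and 25.3, and neither passed the test (limma adjusted p = 0.21 and 0.3). Trf, transferrin, had at most 7.32 normalised reads in any library and was not tested. Per kb of exon, Tfr2 (8.76 in WT) and Slc11a1 (4.53) lay far below Tfrc and Slc11a2.

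As background for the storage and sensing lists, 14.6% of all genes tested were called lower and 13.4% higher. Of the 3 tested genes of storage, Pcbp1 fell. It encodes a chaperone that delivers iron to ferritin, and it went from 1721 ± 160.2 normalised reads (SD, n = 3) to 1101 ± 235 (SD, n = 4) (log2 fold change -0.67, limma adjusted p = 0.014). Ncoa4, the receptor that sends ferritin to the lysosome, stood at 1962 ± 129.8 and 1725 ± 172 (limma adjusted p = 0.16). Of the 6 genes of iron sensing, Hif1a, a transcription factor stabilised when oxygen or iron is short, fell from 4200.4 ± 275 to 2811 ± 344 (-0.59, limma adjusted p = 0.00404). Zfp36, an mRNA decay factor known to act on Tfrc mRNA when iron is low, rose from 3267 ± 362 to 4397 ± 443 (0.43, limma adjusted p = 0.0162). Fbxl5, the iron-sensing ubiquitin ligase subunit that removes IRP2, stood at 2370 ± 90.4 and 2660.2 ± 185 (limma adjusted p = 0.161). The call for Zfp36 ended in 6 of 19 other settings, and those for Pcbp1 and Hif1a only with the sex covariate. No gene of the 5 tested for export and systemic control was called by limma, with 2 at an unadjusted p under 0.05.

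Of 9 tested genes of heme breakdown and transport, 2 fell (22.2%) and 1 rose (11.1%), beside 14.6% and 13.4% of all genes tested. Hmox2, the constitutive heme oxygenase, fell from 1921 ± 72.2 normalised reads (SD, n = 3) to 1568 ± 89.0 (SD, n = 4) (log2 fold change -0.29, limma adjusted p = 0.0262), a call that ended in 7 of 19 other settings. Mfsd7b, listed here by its older symbol and known as the heme exporter Flvcr1, fell from 2017 ± 407 to 1310.0 ± 196 (-0.61, limma adjusted p = 0.0147). Cd163, a macrophage receptor for haemoglobin, rose from 6.29 ± 3.15 to 24.6 ± 13.8 (1.75, limma adjusted p = 0.0389), with 42.1 in cKO MED1 replicate 4. Cd163 is not among the 15 macrophage markers given beside Slc40a1. Its call ended in 7 of 18 other settings. Of the 9 genes around NRF2, Bach1, a heme-sensing repressor of Hmox1 and the ferritin genes, rose from 838 ± 66.7 to 1059.9 ± 51.9 (0.34, limma adjusted p = 0.0211), while Txnrd1, thioredoxin reductase 1 (-0.51, limma adjusted p = 0.022), and Keap1, the inhibitor of NRF2 (-0.30, limma adjusted p = 0.0274), fell. These calls ended in 7, 4 and 6 of 19 other settings for Bach1, Txnrd1 and Keap1, and that of Mfsd7b in 3. Nfe2l2, which encodes NRF2, stood at 877 ± 19.4 and 884 ± 34.0 normalised reads (limma adjusted p = 0.927).

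Iron-sulphur cluster genes were called lower at shares of 22.7% in the mitochondrial list and 36.4% in the cytosolic list, beside 14.6% of all genes tested. By level, the share of all genes was 27.6% in the upper tercile, where most of the cytosolic list lies. It was 15.4% in the middle tercile, where most of the mitochondrial list lies. In mitochondria 5 of 22 fell and 0 rose, with a median of -0.17. Hspa9, the mitochondrial HSP70 that helps hand on new clusters among many other clients, fell from 14102 ± 2348 normalised reads (SD, n = 3) to 8379.9 ± 1142 (SD, n = 4) (log2 fold change -0.75, limma adjusted p = 0.00467). Abcb10, an inner membrane transporter known to stabilise mitoferrin 1, fell (-0.65, limma adjusted p = 0.00196), as did its relative Abcb8 (-0.52, limma adjusted p = 0.00652). In the cytosol 4 of 11 fell and 1 rose, with a median of -0.17. The scaffold gene Nubp2 (-0.59, limma adjusted p = 0.00473) and the targeting factor gene Ciao1 (-0.45, limma adjusted p = 0.01) fell, and Fam96b, now called Ciao2b and a partner of Ciao1, rose from 699 ± 65.7 to 943 ± 83.0 (0.43, limma adjusted p = 0.0147). The Fam96b call ended in 8 of 19 other settings. Those of Hspa9, Abcb10, Abcb8, Nubp2 and Ciao1 ended only with the sex covariate.

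Of 10 tested heme synthesis genes, 3 fell (30%) and 1 rose (10%), beside 14.6% and 13.4% of all genes tested. By level, 27.6% of all genes were called lower in the upper tercile and 15.4% in the middle tercile, where these genes lie. Alas1, the rate-limiting enzyme outside red cells, stood at 963 ± 107 (SD, n = 3) and 848 ± 89.9 (SD, n = 4) normalised reads (limma adjusted p = 0.221). Alas2, its red cell counterpart, had at most 20.1 in any library and was not tested. Cox10, the enzyme that turns heme b into heme o for cytochrome oxidase, fell (-0.59, limma adjusted p = 0.019), a call that ended in 2 of 19 other settings. Ppox, a late enzyme, rose (0.35, limma adjusted p = 0.0256), a call that ended in 8 of 19 other settings. Erythroid markers stood beside these as 3 called higher and 1 lower of 8 tested of 12 listed, with a summed level of 161 to 288 normalised reads in WT and 215 to 684 in cKO MED1, and 0 of the 12 at 0 in all libraries. Their part in these values was not tested.

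The next list holds enzymes of DNA synthesis, DNA repair and nucleotide synthesis that need iron, most of them through an iron-sulphur cluster. It had the most lower calls of the lists, 8 of 13 (61.5%), with 0 higher and a median of -0.46. Of all genes, 27.6% were called lower in the upper tercile by level, where most of the 13 lie. The share was 15.4% in the middle tercile, where the rest lie. No list of replication genes that need no iron was set beside it. Pold1, the catalytic subunit of DNA polymerase delta, fell from 3439 ± 478 normalised reads (SD, n = 3) to 1801 ± 170.5 (SD, n = 4) (log2 fold change -0.93, limma adjusted p = 0.000416). Ppat, the first enzyme of purine synthesis (-0.70, limma adjusted p = 0.00465), and Pola1, of DNA polymerase alpha (-0.54, limma adjusted p = 0.00387), fell as well. The calls of Ppat and Pola1 ended only with the sex covariate, and that of Pold1 held in all 19 other settings. Without these 13 genes, 19 of the other 92 iron genes were called lower and 7 higher, with a median of -0.12. Of the 3 tested other genes with a known iron-responsive element, limma called 0, with 2 at an unadjusted p under 0.05.

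**Figure D5:**
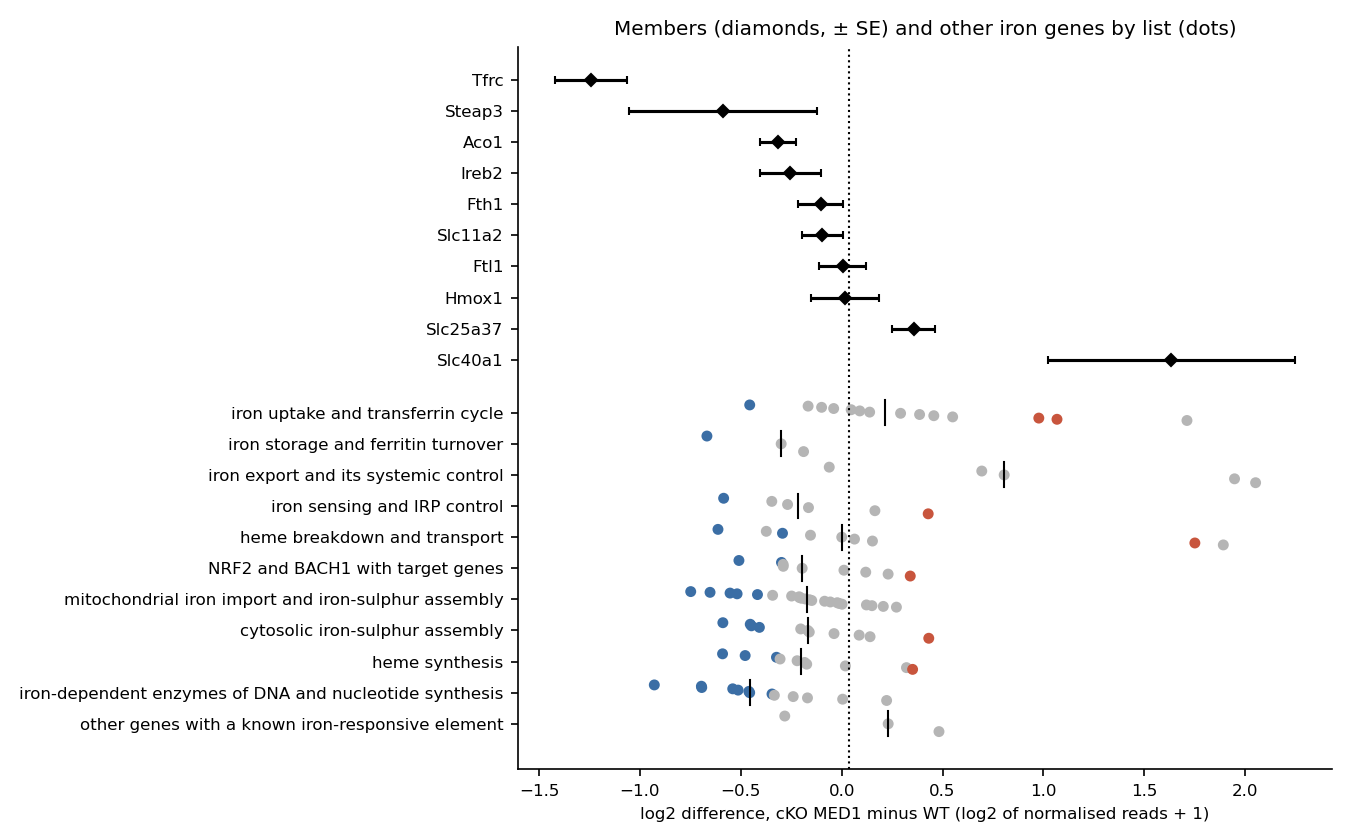
The horizontal axis gives the log2 difference, cKO MED1 minus WT. Diamonds with SE bars are the 10 members, dots are other iron genes by list, coloured blue where called lower, red where called higher and grey where not called, short lines are list medians and the dotted line is the median of all genes tested (0.04). Tfrc lies at -1.24, apart from the ferritin genes at -0.10 and 0.01, and the list of DNA and nucleotide enzymes has the lowest median, -0.46.

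The genes whose levels went most like those of Tfrc over the 7 libraries, among 5359 genes with a mean of at least 1000 normalised reads (antigen receptor, mitochondrial and provisionally named genes left out), were Rdx, Psmc3, Prmt7, Rfc5 and Gnl3. Pearson's r of log2 values with Tfrc was 0.99 to 1.00 for them. This r follows any difference between the groups. On deviations from the group means it was 0.98, 0.99, 0.98, 0.97 and 0.97 in that order. The genes were picked by r over these same libraries, so high values there were largely fixed by the choice and are no separate check. Psmc3 encodes a proteasome subunit, Rfc5 a subunit of the clamp loader of DNA replication, Gnl3 (nucleostemin) a nucleolar GTPase, Prmt7 an arginine methyltransferase and Rdx radixin, which ties the membrane to actin. All of them were lower in cKO MED1 by less than Tfrc, with log2 fold changes from -0.44 for Rdx to -0.85 for Gnl3. The points share libraries and scaling, and the r values are a description over 7 libraries. Among the members, r with Tfrc was highest for Aco1 (0.88) and lowest for Slc40a1 (-0.85) and Slc25a37 (-0.80).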

How the data were processed

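The authors deposited 1 table of signal per gene for 7 libraries, read counts divided by 1 size factor per library, as the values show: dividing by the lowest nonzero value of a library gave whole reads for 100% of values (tolerance 1e-06). The submitters' processing notes list the build GRCm38 (mm10) and the tools DESeq2, R 3.4, Subread 1.5.0-p3 with featureCounts, and STAR 2.4.0a, without their roles or settings. The phiX174 row (at most 0.000383% of reads) was left out. Positions and exonic lengths came from GENCODE M21 (GRCm38) by symbol, which placed 94.0% of genes.

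TMM factors from edgeR 4.0.16 brought the recovered reads (31937372 to 61149274 per library) to a common size of 48080599, giving normalised reads. After edgeR's filterByExpr, 18062 genes were tested in R 4.3.3 by limma 3.58.1 on log2 of normalised reads plus 1. The fit used the trend option, Benjamini-Hochberg adjustment and all 7 libraries, WT against cKO MED1. The added 1 bears most on low genes. Slc40a1 was at 1.63 on this scale and 1.56 in edgeR's test, and Steap3 at -0.59 and -0.53. edgeR's quasi-likelihood test on recovered reads called 5340 genes and limma 5065. limma was also run on simulated reads that held no sex or background difference between the groups. That run therefore cannot vouch for the calls in these data. BLAST+ 2.17.0 found copies of members. Precision is given as SD between libraries.

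The members and lists were chosen with earlier results of these data known. Named genes are the members, fixed functional partners, up to 3 called genes per list without overlap between groups, ferritin copies and the 5 genes most like Tfrc. Some genes named by this rule are not reported here. Gm15590, Gm5475, Gm6977, Gm16867, Gm31748, Gm37847 and the cell type markers were named after their values were seen. Alternatives were other scalings, filters, tests, a pseudocount of 5, a replicate block, a sex covariate, background subtraction and libraries left out.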

Additional observations from a re-analysis of the deposited data

Results flagged for a closer look

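Slc11a2 in cKO MED1 replicate 1, at 556.9 normalised reads, stood apart from the other 3 cKO MED1 libraries, which lay between 523 and 526. Its gap to the nearest of them was 0.912 of the group's range, above Dixon's 95% critical value for 4 samples. The value lies inside the WT range of 514 to 643. This was the 1 such value among 48 genes examined in the 4 cKO MED1 libraries, and chance flags about 1 in 20 groups.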

How the results depend on the processing

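Over 19 other settings the log2 difference of Tfrc ran from -1.48 to -0.90 and it was among the called genes in 18, the sex covariate excepted. Aco1 was called in 10 (-0.56 to -0.20) and Slc25a37 in 12 (0.11 to 0.47). Slc40a1 ran from 0.82 to 2.03 in 18 settings and was called in 5, and Ireb2 was called in 1, total reads (-0.50). With the sex covariate limma called 228 genes, 0 members and 1 lower and 0 higher among the other iron genes. Without cKO MED1 replicates 3 and 4 the counts were 2145 genes in all and 17 lower and 4 higher other iron genes. Total reads gave 43 lower, and no filter 4 higher. Leaving out 1 library at a time gave 1556 to 6125 genes in all, 1 to 3 members, and 13 to 32 lower and 1 to 10 higher other iron genes, the lowest each time without WT replicate 1. Without cKO MED1 replicate 4, 2812 genes were called. Without WT replicates 2 and 3 the higher counts were 2 and 4. Total reads moved the median of all genes from 0.04 to -0.21 and the authors' size factors to -0.10, and the signs of Ftl1 (-0.24 to 0.16), Hmox1 (-0.23 to 0.17), Fth1 (-0.35 to 0.05) and Slc11a2 (-0.34 to 0.02) differ between settings. Steap3 ran from -1.14 to -0.15 in 18 settings. Deviations of same-numbered libraries from their group means correlated at 0.51, -0.23 and 0.16. Deviations within such small groups are not independent, so these values cannot decide whether replicate numbers pair the libraries. With the replicate block, limma called 3741 genes, 2 members (Tfrc at -1.13 and Slc25a37 at 0.35), and 21 lower and 5 higher other iron genes. Low depth limits Slc40a1 and Steap3, counted from 4 to 51 reads per library.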

Other observations

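Among the 105 other iron genes tested, those with the largest positive log2 fold changes were scarcely expressed. They were picked out here after their values were seen. Heph, a copper enzyme that oxidises iron on export, was at 0, 4.08 and 4.79 normalised reads in WT replicates 1 to 3 and at 9.49, 6.82, 14.5 and 20.1 in cKO MED1 replicates 1 to 4 (2.05, limma adjusted p = 0.0644). Its plasma relative Cp, ceruloplasmin, was at 2.07, 8.16 and 3.19 in WT and 8.13, 10.7, 21.1 and 53.1 in cKO MED1 (1.95, limma adjusted p = 0.0519). Steap2, a ferrireductase related to Steap3, was at 4.13, 4.90 and 6.39 in WT and 9.49, 7.80, 30.3 and 53.1 in cKO MED1 (1.71, limma adjusted p = 0.0662). Mfsd7c, the Flvcr1 relative Flvcr2, was at 2.75, 8.98 and 3.99 in WT and 9.49, 8.77, 36.9 and 51.2 in cKO MED1 (1.89, limma adjusted p = 0.056). Cd163, described with the heme genes, lies among them (1.75) and passed the test (limma adjusted p = 0.0389). The other 4 did not pass it, and each of the 5 was highest in cKO MED1 replicate 4 and next highest in replicate 3, the libraries with the most reads in odorant and pheromone receptor genes.

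The haemoglobin genes did not move together. Hba-a1 was at 10.3, 31.8 and 8.78 normalised reads in WT and at 58.3, 182, 35.6 and 197.7 in cKO MED1 (log2 fold change 2.62, limma adjusted p = 0.0117), whereas Hbb-bt was at 73.7, 100.4 and 79.8 in WT and at 17.6, 43.9, 30.3 and 32.9 in cKO MED1 (-1.47, limma adjusted p = 0.00674). Hbb-bs, its neighbour and near copy, stood at 45.4, 102 and 55.9 in WT and 52.8, 216, 48.7 and 170.2 in cKO MED1 (limma adjusted p = 0.349). Near-identical globin genes can share reads, so the split between them is uncertain.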
